A study of Mus musculus with 8 samples.

Results

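Raly, Hnrnpc and Ralyl are 3 of the 24029 genes with a symbol on the array and were chosen by name, as the target of the knockdown and its closest relatives. They are measured by 6 of 55681 probes: 1 for Raly, 2 for Hnrnpc and 3 for Ralyl. The samples are livers of bl6 mice, 12 weeks old and on chow, taken on day 6 after transduction. One group of 4 received pblockITcontrol and the other group of 4 received pblockITshRaly, which carries a short hairpin RNA against Raly, at a virus dose of 2e+09 for which no unit is given. Every animal therefore carried a virus, no untreated liver was analysed here, and nothing in the labels restricts the hairpin to 1 cell type. The titles number the samples without stating that each is a separate mouse, and p-values here cover only the spread among these 8 arrays, which may be technical.

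The 3 genes encode RNA-binding proteins of the heterogeneous nuclear ribonucleoprotein (hnRNP) C subfamily, which share an RNA recognition motif. hnRNP C binds uridine-rich stretches of nascent transcripts in the nucleus and restrains the use of cryptic splice sites. RALY was named after the lethal yellow mutation of the agouti locus, a deletion that removes its coding sequence in mice. RALY-like is known mainly from neural tissue. A hairpin chosen for 1 member of such a family raises the question whether the other members were lowered with it. This comparison addresses it only for RNA detected on these arrays, and the hairpin sequence was not available here.

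Agilent 1-colour arrays read each transcript with probes of 60 bases. The sequences of the probes the results turn on are given here 5′ to 3′. In the Raly probe, the dimmer Hnrnpc probe and the Ralyl probe, capitals mark the longest run shared, on either strand, with a probe of another of the 3 genes. In the brighter Hnrnpc probe and in NAP111903-1, a probe with no gene symbol, capitals mark the run these 2 probes share.

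Raly, A_55_P2013765: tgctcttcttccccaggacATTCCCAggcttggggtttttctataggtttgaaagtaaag

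Hnrnpc, brighter probe, A_55_P2171143: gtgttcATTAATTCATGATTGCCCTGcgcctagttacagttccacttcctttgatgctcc

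Hnrnpc, dimmer probe, A_52_P218537: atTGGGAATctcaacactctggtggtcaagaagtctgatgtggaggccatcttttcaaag

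Ralyl, A_55_P2074425: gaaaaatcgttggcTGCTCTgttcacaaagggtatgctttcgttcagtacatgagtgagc

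NAP111903-1, A_55_P2150361: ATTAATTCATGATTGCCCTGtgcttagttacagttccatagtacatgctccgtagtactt

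On mouse build mm9 the Raly probe lies at chr2:154692867-154692926 on the plus strand. The brighter Hnrnpc probe lies at chr14:52694562-52694621 and the dimmer one at chr14:52703914-52703973, both on the minus strand and 9.35 kb apart. The Ralyl probes start at positions 13776984, 13946472 and 14181384 of chromosome 3, so their starts span 404.4 kb. Exon, intron and UTR annotation on this build was not used here. Between probes of different members the longest shared run was 7 bases, and for the Ralyl probe shown it was 6. Probes were compared only with other probes, not with the transcripts of the other members, so binding across members was not tested. No other probe on the array shared 15 bases with the Raly probe, and 1 did so with the brighter Hnrnpc probe. That probe, NAP111903-1 on chromosome 4 (97187920 to 97187979), shares a run of 20 bases and matches it at 40 of 54 bases where they overlap. Its values are given beside those of the brighter Hnrnpc probe. Of the Ralyl probes, A_55_P2074429 shared at least 15 bases with 3 probes of other genes, Defb30, Ick and Pclo.

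The labelled tissue matched its markers: 10 of 10 hepatocyte markers were well above background on all 8 arrays, by the scanner software's flag. Between 45.9% and 51.1% of non-control spots were well above background, lowest on shRaly 2, and the correlation over genes was 0.987 to 0.995 between arrays. Markers of other liver cells were detected too, on all 8 arrays for 5 of 5 Kupffer cell, 5 of 5 endothelial, 5 of 5 stellate cell, 3 of 5 cholangiocyte and 4 of 5 T and NK cell genes. All arrays lay on 1 slide, the controls in row 1 and the shRaly arrays in row 2, so row and treatment cannot be told apart. Control and shRaly arrays of the same number lay in the same slide column.

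The Raly signal of every hairpin array was below that of every control array, while the fit over all genes did not call it. The processed signal, the scanner's background-subtracted intensity, was 3111, 2297, 3160 and 3197 on control arrays 1 to 4. It was 1297, 2036, 1838 and 1848 on shRaly arrays 1 to 4. Before any scaling between arrays every shRaly signal was thus below every control signal, and shRaly 1 was the lowest. The same order of groups held after each array was scaled to its 75th percentile. The scaled control values were 100.4%, 84.3%, 105% and 112% of their geometric mean, and the shRaly values 51.8%, 80.9%, 58.3% and 62.7%. The shRaly 2 array was the highest of the hairpin arrays and lay next to control 2, the lowest control. The scaled signal of shRaly 2 was 96.0% of that of control 2, while the scanner's error estimate was 10.0% of the signal for each of these spots. That of shRaly 1 was 64.1% of that of shRaly 2. The spot error covers neither array nor animal variation, and the controls also differed by more than it, so no difference in knockdown between hairpin arrays is read from these values.

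**Figure D1:**
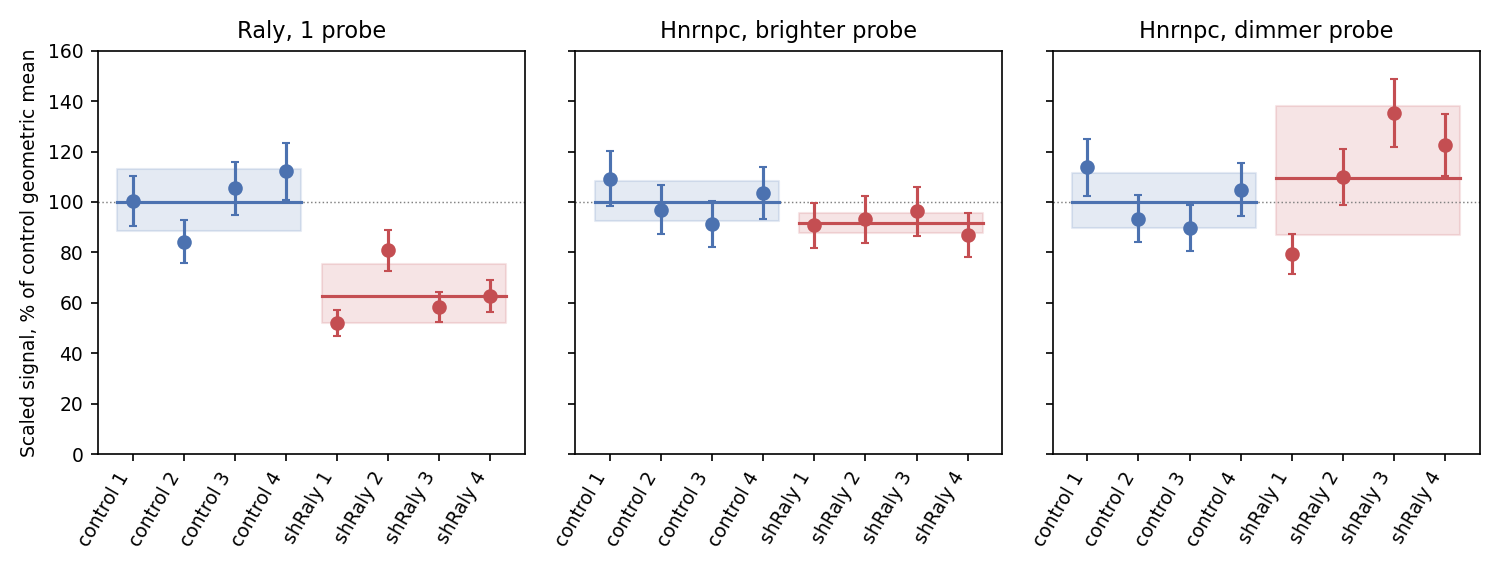
Scaled signal of the Raly probe and of both Hnrnpc probes on each of the 8 arrays, in percent of the control geometric mean; bars are the scanner's error estimate for the spot, lines are group geometric means and shaded bands are ± 1 SD on the log2 scale. The Raly values of the shRaly arrays run from 51.8% to 80.9%, below the lowest control at 84.3%, whereas the groups overlap for both Hnrnpc probes.

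In the fit over all 14873 genes tested, Raly had a log2 fold change of -0.68 (SE 0.15, n = 4 and 4). Raly stood at 62.5% of control, with a 95% interval of 49.4% to 79.3%. At a limma adjusted p of 0.0749 it missed the threshold of 0.05. At that threshold 1.22% of all genes tested passed, 0.914% as lower and 0.309% as higher. An exact two-sided permutation test on Raly alone gave p = 0.0286, the lowest value open to 4 against 4 arrays. Its groups did not overlap, a pattern that 6.45% of all genes tested shared in the same direction. Among all genes tested, 314 (2.11%) had a more negative log2 fold change than Raly and 307 had a smaller limma p. The median log2 fold change of all genes was -0.02.

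The Raly call depended on single settings while its direction did not. With normexp background correction in place of the scanner's processed signal, the log2 fold change was -0.71 (SE 0.12) and the limma adjusted p was 0.0111, past the threshold. Without shRaly 2 it was -0.80 (SE 0.13, limma adjusted p = 0.030), also past the threshold. Over the 8 fits that leave out 1 array each, it ran from -0.80 to -0.59.

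**Figure D2:**
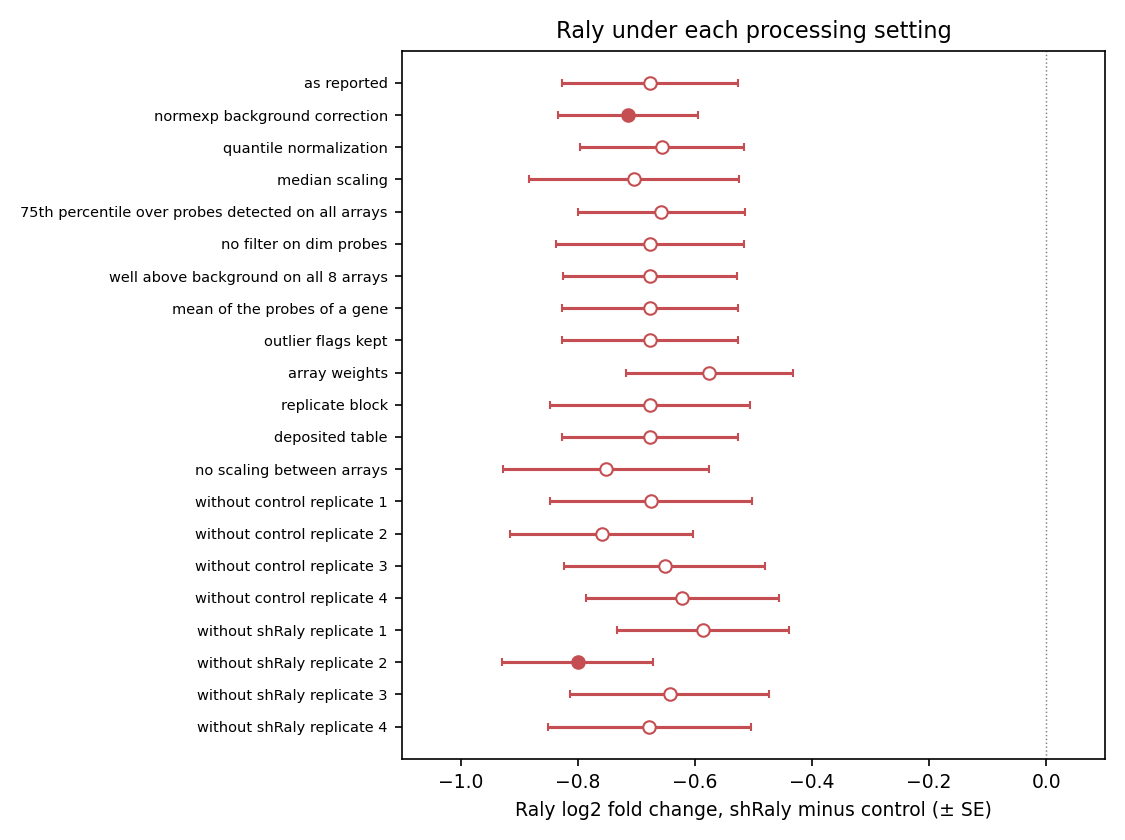
Raly log2 fold change, shRaly minus control, with its SE under each processing setting and with each array left out; filled points have a limma adjusted p under 0.05. All points lie between -0.80 and -0.58, and the filled ones are normexp background correction and the fit without shRaly replicate 2.

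Hnrnpc, the gene after which the subfamily is named, was well above background on all 8 arrays with both probes, and neither probe passed the test. The brighter probe, which represents the gene in the fit, had processed signals of 8669, 6770, 6998 and 7549 on control arrays 1 to 4. On shRaly arrays 1 to 4 they were 5811, 6005, 7775 and 6560. After scaling, the shRaly arrays had 90.7%, 93.2%, 96.3% and 86.9% of the control geometric mean and the controls 109%, 97.0%, 91.1% and 103.5%. The groups overlapped, with controls 2 and 3 among or close to the shRaly values. Its log2 fold change of -0.12 (SE 0.09, n = 4 and 4, limma adjusted p = 0.526) corresponds to 91.7% of control with a 95% interval of 79.8% to 105%. By the exact permutation test the two-sided p was 0.114.

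The dimmer Hnrnpc probe gave the opposite sign. Its processed signals were 1111, 803, 848 and 942 on control arrays 1 to 4. On shRaly arrays 1 to 4 they were 627, 873, 1345 and 1139. The scaled shRaly values were 79.4%, 110%, 135% and 123% of the control geometric mean and the control values 114%, 93.4%, 89.7% and 105%. The shRaly 1 array was thus below all controls and shRaly 3 and 4 above all of them. In a fit over the 19860 probes that passed the filter, it had a log2 fold change of 0.13 (SE 0.17, n = 4 and 4, limma adjusted p = 0.759), or 110% of control with a 95% interval of 84.2% to 143%. The lower bound of the interval was -0.33 for the brighter probe (fit over genes) and -0.25 for the dimmer one (fit over probes). Both were above the Raly estimate of -0.68. The 95% interval of Raly in the fit over genes, -1.02 to -0.34, ended just below the lower bound of the brighter probe.

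The Hnrnpc probes disagreed more among the hairpin arrays than among the controls. On the control arrays the log2 difference, dimmer minus brighter, varied with an SD of 0.05, and on the shRaly arrays with an SD of 0.32. Relative to the control mean this difference was -0.19, 0.24, 0.49 and 0.50 on shRaly 1 to 4. An exact two-sided permutation test of the group means of this difference, chosen after the values were seen, gave p = 0.171. The difference in spread itself was not tested. NAP111903-1, the probe similar to the brighter one, was well above background on all 8 arrays and stood at 92.2%, 95.9%, 101.3% and 95.6% of control on shRaly 1 to 4. The control range was 94.6% to 107%, so its values also overlapped between groups. Its part in the signal of the brighter probe was not tested.

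Raly was then compared with Hnrnpc on the same arrays. The difference had the lowest exact p open to 4 against 4 arrays and did not pass after adjustment over the tests made. A difference of log2 values within an array removes the scaling factor of that array. For Raly minus the brighter Hnrnpc probe, relative to the control mean, the controls had -0.12, -0.20, 0.21 and 0.12 and the shRaly arrays -0.81, -0.20, -0.72 and -0.47. The difference between groups was -0.55 (SE 0.17, n = 4 and 4; exact two-sided p = 0.0286). No shRaly array reached a control array, although shRaly 2 and control 2 were nearly equal. With quantile normalization these 2 arrays changed order, and at a difference of -0.57 the exact two-sided p was 0.0571. Against the dimmer probe, an alternative added after the data were seen, the difference was -0.81 (SE 0.20, n = 4 and 4) and the groups separated again (exact two-sided p = 0.0286). After Benjamini-Hochberg adjustment over the 6 exact permutation tests made on these genes, the smallest adjusted p was 0.0571, shared by Raly and both of these differences.

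**Figure D3:**
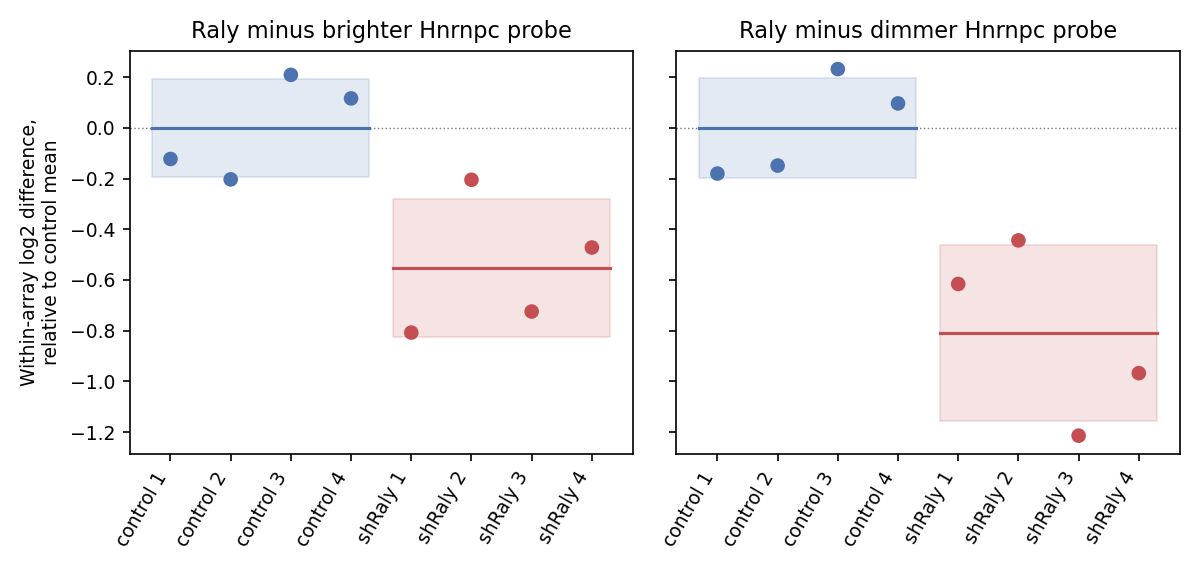
Within-array log2 difference between the Raly probe and the brighter (left) or dimmer (right) Hnrnpc probe on each array, relative to the control mean; lines are group means and bands ± 1 SD. On the left shRaly 2 and control 2 are level at -0.20 and the other shRaly arrays lie between -0.81 and -0.47; on the right all shRaly arrays lie at or below -0.44.

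Ralyl was not detected in these livers. Each of its 3 probes was well above background on 0 of 4 control and 0 of 4 shRaly arrays, whereas 49.8% of all non-control spots were. The processed signals of the 24 spots ran from 2.15 to 6.79, and the lowest signal called well above background was 10.5 to 17.8 depending on the array. The mean spot intensity, 22.7 to 35.4, was in the range of the local background, 25 to 38. The scanner's error estimate was 40.4% to 100.3% of the signal. With both groups below background no fold change is given.

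The Ralyl probe with the highest signals was A_55_P2074425. Its signals were 2.98, 6.01, 4.97 and 5.98 on control arrays 1 to 4 and 2.92, 3.85, 6.79 and 4.14 on shRaly arrays 1 to 4, so the groups overlapped. By a laxer flag, positive and significant against background, it was called on 3 control and 3 shRaly arrays. The same flag was set for the probe A_55_P2074429 on 2 shRaly arrays and for A_52_P38011 on none, 8 of 24 spots in all, against 66.6% of all non-control spots. Among 6 neuronal marker genes 3 were called well above background on each of the 8 arrays, beside 13663 of the 24029 genes with a symbol. Nefl, a neurofilament subunit, was called on none, and the rest on some arrays only. Ralyl RNA below this background could not be measured on these arrays.

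**Figure D4:**
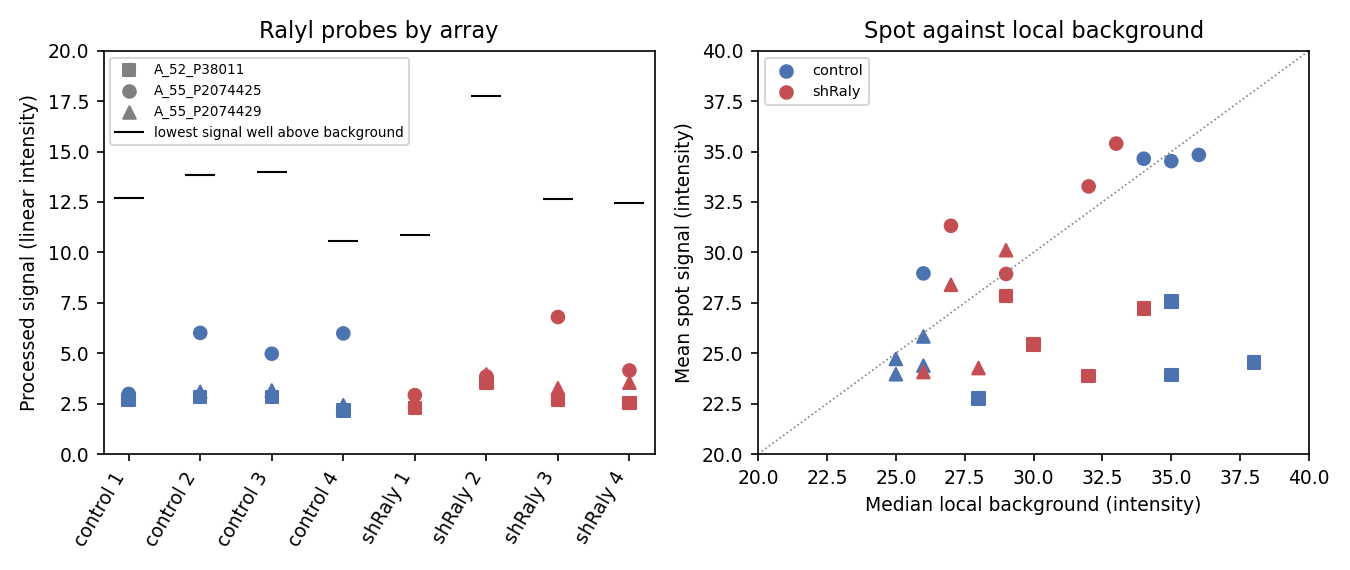
Left, processed signal of the 3 Ralyl probes on each array, with the lowest signal that was well above background on that array as a black bar. Right, mean spot signal against median local background for the same 24 spots, in intensity units, with the line of equality dotted; blue marks control and red shRaly arrays. All Ralyl signals, 2.15 to 6.79, lie below the black bars, which run from 10.5 to 17.8.

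The wider hnRNP family gave no call. All 28 members of a list of other hnRNP genes were tested and detected on all 8 arrays; 0 passed the limma threshold as lower and 0 as higher, against 1.22% of all genes. At an unadjusted p under 0.05 there were 2 of 28, beside 16.1% of all genes. The members were split evenly, 14 below 0 and 14 above, with a median log2 fold change of -0.01 beside -0.02 for all genes tested. Their log2 fold changes ran from -0.27 to 0.27, all nearer to 0 than that of Raly. The groups did not overlap for 2 members with lower and 1 with higher shRaly values, while 6.45% and 3.93% of all genes did so.

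The 4 members with the smallest p are given as values, since none passed. Hnrnpl, a regulator of alternative splicing that binds CA repeats, had values of 0.24, 0.24, 0.38 and 0.21 on shRaly 1 to 4 relative to the control mean. All 4 were above the controls, and its log2 fold change was 0.27 (SE 0.08, limma adjusted p = 0.162). Ptbp1, which represses exons through polypyrimidine tracts, stood at -0.20 (SE 0.08, limma adjusted p = 0.283), and its shRaly values, -0.32 to -0.12, were below all controls; with the mean of its probes it stood at -0.13. Hnrnpu, a nuclear scaffold protein, stood at -0.19 (SE 0.09, limma adjusted p = 0.359) with the groups also apart. Hnrnpa1, a splicing repressor, stood at -0.27 (SE 0.16, limma adjusted p = 0.438) and its groups overlapped. The Hnrnpa1 value was -0.16 without shRaly 1, -0.16 without control 4 and -0.15 with array weights.

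**Figure D5:**
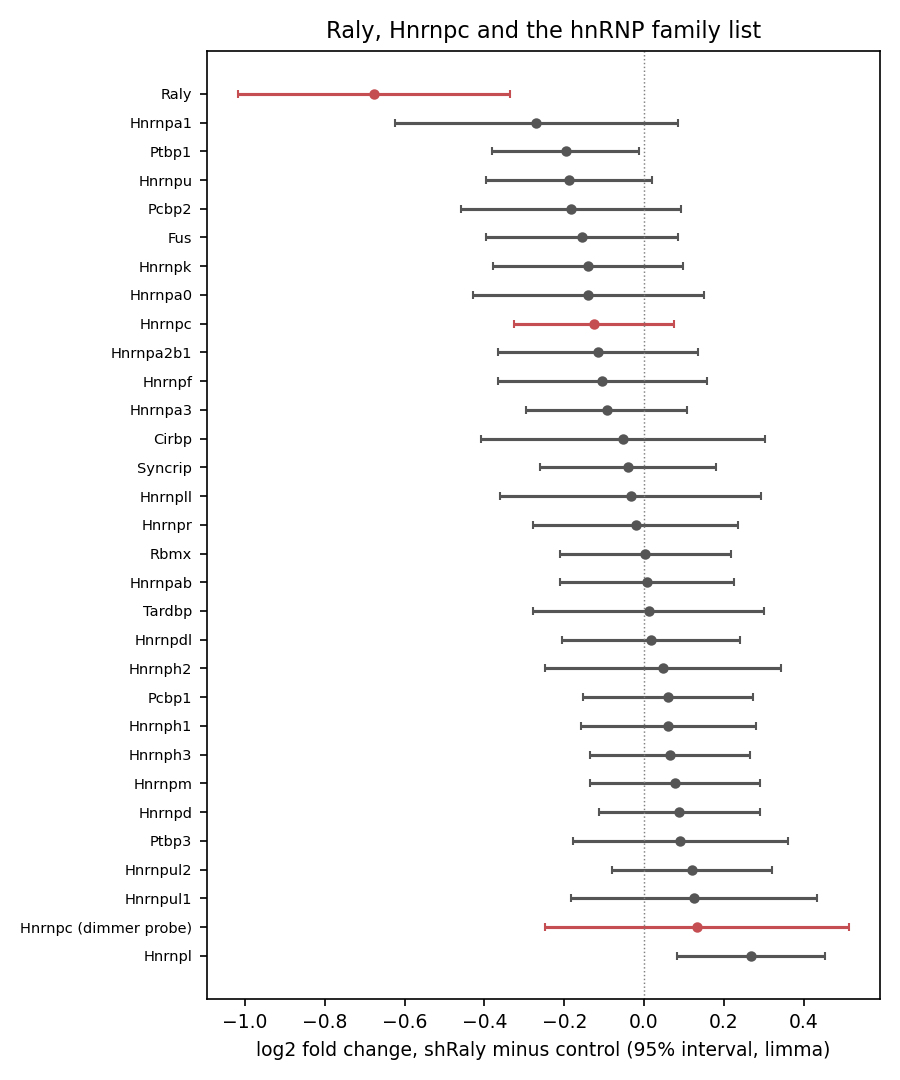
log2 fold change, shRaly minus control, with its 95% interval from limma for Raly, both Hnrnpc probes (red) and the 28 genes of the hnRNP family list (grey). Raly lies at -0.68 and the listed genes between -0.27 and 0.27.

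The genes around the probes were examined to set the Raly value beside those of its genomic surroundings. Within 200 kb of the Raly probe 5 named genes were tested. Eif2s2, which encodes the beta subunit of a translation initiation factor and has its probe 4.345 kb away, had a log2 fold change of -0.02 (SE 0.10, limma adjusted p = 0.933), and its other probe 0.09. Chmp4b, a membrane-remodelling factor, stood at 0.03 (SE 0.09), Ahcy, adenosylhomocysteinase, at 0.02 (SE 0.12), and Rpl5-ps2, listed as a ribosomal protein pseudogene, at -0.02 (SE 0.10). Other Ahcy probes had 0.22 and 0.29. None of these 4 passed the limma test. Their 95% intervals did not reach the Raly estimate of -0.68, which has an interval of its own.

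The agouti gene itself, with the symbol a in the annotation, encodes a pigment-switching signal and lies 180.549 kb from the Raly probe. One of its probes had faint signals of 21.6, 16.7, 18.9 and 27.9 on control arrays 1 to 4, all well above background. On shRaly arrays 1 to 4 the signals were 14.8, 14.9, 5.86 and 2.85, and only shRaly 1 was well above background. This probe entered the fit through the control group, and neither a fold nor a test is given because 3 of the 4 shRaly arrays did not measure it. The other probe of this gene was not well above background on any of the 8 arrays. Its highest signal was 10.3 on control 4, where the lowest signal well above background was 10.5.

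Around Hnrnpc on chromosome 14, 10 named genes within 200 kb were tested and 0 passed. The log2 fold changes of their representative probes ran from -0.18 for the zinc transporter gene Slc39a2, which turned to 0.16 with normexp, to 0.34 for Supt16, a subunit of the histone chaperone FACT. Supt16 had values of 0.14, 0.39, 0.43 and 0.40 on shRaly 1 to 4 relative to the control mean (SE 0.11, limma adjusted p = 0.193) and overlapped the controls through shRaly 1. Mettl17, which encodes a mitochondrial protein, stood at 0.24, and at 0.38 without control 1. The zinc finger gene Zfp219 stood at 0.16, with 0.04 without shRaly 3 and 0.30 without control 1. Arhgef40, a guanine nucleotide exchange factor, stood at -0.15, and its other probe at -0.32. Rpgrip1 (-0.09), Tmem253 (-0.08), Chd8 (-0.08), Rab2b (-0.06) and Ndrg2 (0.01) were closer to 0.

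The genes whose pattern over the 8 arrays was most like that of Raly were Rwdd4a, Prdm4, Ap1ar, Tex2 and Baiap2l2. Likeness is the root mean square difference of log2 values, each taken relative to the gene's own control mean, and was 0.0963 for Rwdd4a, 0.110 for Prdm4, 0.120 for Ap1ar, 0.123 for Tex2 and 0.125 for Baiap2l2. In each, as in Raly, shRaly 2 was the shRaly array nearest to the controls, at -0.33 in Rwdd4a, -0.25 in Prdm4, -0.34 in Ap1ar, -0.42 in Tex2 and -0.40 in Baiap2l2. The measure picks genes whose values on the 8 arrays are near those of Raly. Both the place of shRaly 2 and the log2 fold changes of these genes, -0.63 to -0.59, are thus a description and carry no test here. The likeness in size did not hold in every setting, since Ap1ar stood at -0.15 and Prdm4 at -0.39 with normexp, and Rwdd4a at -0.29 with the mean of its probes. For the brighter Hnrnpc probe the nearest genes were Cst3 (0.0312), which encodes the protease inhibitor cystatin C, Plpp5 (0.0321) and Mri1 (0.0322), with log2 fold changes of -0.15, -0.12 and -0.12.

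The medians of the cell type marker lists overlapped between the groups in each of 6 lists. The median of the 10 hepatocyte markers, relative to the control mean, was -0.04 to 0.05 on control arrays and -0.18 to 0.05 on shRaly arrays. For Kupffer cell markers the ranges were -0.49 to 0.24 and -0.17 to 0.12, for endothelial markers -0.16 to 0.06 and -0.44 to 0.17, and for stellate cell markers -0.19 to 0.14 and -0.26 to -0.07. Those of cholangiocyte markers were -0.32 to 0.38 and -0.16 to 0.34, and those of T and NK cell markers -0.36 to 0.15 and -0.20 to 0.32. The shRaly arrays were all below the controls for 1 of 10 hepatocyte, 1 of 5 endothelial and 1 of 5 T and NK cell markers, beside 6.45% of all genes. An unadjusted limma p under 0.05 was found for 4 of 10 hepatocyte, 2 of 5 endothelial and 1 of 5 T and NK cell markers, beside 16.1% of all genes. In the 6 lists 0 members passed the limma threshold, as was the case for Raly and for all but 1.22% of genes. The part of these cell types in the Raly values was not tested. In whole liver, fewer cells of a type and less Raly RNA per cell cannot be told apart.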

How the data were processed

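The deposited array files hold intensity values of Agilent Feature Extraction, version 11.5.1.11 by the sample labels. The grid placement field of the array headers gives 11.5.1.1. The values are a mean spot intensity, a local background intensity and a processed signal. The processed signal is background-subtracted and spatially detrended but without normalization between arrays. The deposited p-value of each spot against background was not used. The deposited series table equals the processed signal for 62976 of 62976 spots (relative tolerance 1e-06), which makes it linear and uncentred, with column medians of 13.3 to 16.4. Here log2 processed signals were scaled to each array's 75th percentile over 59305 non-control spots, flagged outlier spots (137 to 163 per array) were set to missing, and spots of a probe were averaged; 0 spots were saturated. Names came from RefSeq accessions for 27656 probes, current symbols for 3401 and older symbols for 321 (GRCm38.p6 gene table, names only). For 1775 probes the name on the array was kept. A gene was tested if a probe was well above background on at least 4 arrays, with values on at least 3 arrays per group, and the probe with the highest mean represented it. Groups were compared with limma 3.58.1 in R 4.3.3, Benjamini-Hochberg adjusted over 14873 genes; no block was used, since same-numbered arrays did not deviate together (correlations 0.09, -0.02, -0.07 and 0.14). On simulated data for shRaly against control, 14851 genes, 60% of genes changed 1.6-fold and 72% of those changed 2-fold were recovered. The arrays' number limits the precision. Members and lists were chosen with earlier results of these data known. Besides all members, the genes named are the 4 hnRNP genes of smallest p, tested neighbours within 200 kb, and the 5 and 3 genes of most similar pattern, without clone and predicted-gene names.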

Additional observations from a re-analysis of the deposited data

Results flagged for a closer look

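Among the genes named, 3 of 60 groups of 4 arrays held an array far from the other 3, judged by Dixon's 95% criterion on the gap to the nearest array over the range of the group. Chance gives about 1 in 20. In the shRaly group Supt16 was low on shRaly 1, with a gap of 0.886 of the range. In the control group Rab2b was high on control 3, with 0.965, and Mettl17 was high on control 1, with 0.974. No Raly or Hnrnpc probe had such an array.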

How the results depend on the processing

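Raly kept its direction under every alternative and leave-out run, at -0.80 to -0.58, and passed limma's threshold with normexp background correction (-0.71) and without shRaly 2; leave-outs ran from -0.80 to -0.59 (adjusted p from 0.030 to 0.193), and with the replicate block the adjusted p was 0.183 at the same -0.68. The titles state no pairing, although arrays of the same number shared a slide column. With that block 46 genes were called in place of 182, and not every array correlated best with its own number. Calls were also 42 with no filter on dim probes, 565 with array weights and 17 (without control 2) to 282 (without shRaly 2) in leave-outs. The split of 136 lower and 46 higher became 136 and 22 with no scaling between arrays. Raly minus Hnrnpc was -0.67 to -0.47 in leave-outs, where 3 against 4 arrays cannot reach 0.05. With the replicate block its exact p was 0.125, the smallest 4 pairs can give. It was -0.57 (exact p = 0.0571) with quantile normalization. Hnrnpc turned to 0.0043 with the mean of its probes and stayed at -0.17 to -0.08 in leave-outs. The hnRNP list had 0 calls in every setting. Ralyl had 8 of 24 spots by the laxer flag.

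Sign changes among neighbours were found for Ndrg2 (normexp -0.066, median scaling -0.020, no scaling -0.068), Rpl5-ps2 (quantile 0.011, detected-probe percentile 0.00067, array weights 0.023), Ahcy (median scaling -0.0096, no scaling -0.058), Chmp4b (no scaling -0.043), Eif2s2 (quantile 0.014, mean of probes 0.031), Tmem253 (normexp 0.048) and Slc39a2 (normexp 0.16). Leave-outs gave ranges across 0 for Ahcy (-0.056 to 0.078), Chd8 (-0.18 to 0.012), Chmp4b (-0.00014 to 0.085), Eif2s2 (-0.081 to 0.029), Ndrg2 (-0.025 to 0.028), Rab2b (-0.15 to 0.0045) and Rpl5-ps2 (-0.059 to 0.054). The cause was not tested.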
